A study of Homo sapiens with 24 samples.

Results

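Epithelial-mesenchymal transition genes were followed across 24 RNA sequencing libraries from AGS, a long-used cell line of human gastric adenocarcinoma. The set was chosen by gene symbol as 3 epithelial genes (CDH1, EPCAM, OCLN), 3 mesenchymal genes (VIM, CDH2, FN1) and 4 transcription factors (ZEB1, SNAI1, SNAI2, TWIST1). These 10 members are 10 of 23368 genes in the deposited table of read counts. Cells were harvested 24 h after addition of PI103 at 0.7 µM (an inhibitor of PI3 kinase and mTOR), PD0325901 at 0.035 µM (an inhibitor of MEK) or (5Z)-7-oxozeaenol at 0.5 µM (an inhibitor of TAK1, called oxozeaenol from here on). Other cells received PI103 with oxozeaenol or PI103 with PD0325901, with each inhibitor at 50% of its single concentration, or no treatment (control). All groups were wild-type AGS cells in medium with fetal calf serum, and each had 4 biological replicates, numbered by batch. The labels name no vehicle for the control, and a single cell line was used, so the values describe AGS cells only.

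In an epithelial-mesenchymal transition, epithelial cells loosen their contacts and gain migratory properties. E-cadherin, occludin and EPCAM hold epithelial cells together, while vimentin, N-cadherin and fibronectin mark mesenchymal cells. Factors of the SNAI, ZEB and TWIST families bind E-box sequences, and SNAI and ZEB proteins are known to repress E-cadherin. In carcinoma cells the markers can change in part and independently of each other.

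In AGS cells the members EPCAM and OCLN stood far above the others, CDH1 and VIM were both moderate, and CDH2 and ZEB1 were low. Per kb of exon, which allows levels of different genes to be compared, EPCAM stood at 256 ± 7.41 CPM (SD, n = 4) in control, where CPM are the counts scaled to a common library size with TMM factors of edgeR. OCLN followed at 24.3 ± 1.77 CPM per kb (SD, n = 4), SNAI1 at 5.34 ± 0.429 (SD, n = 4), CDH1 at 2.16 ± 0.209 (SD, n = 4) and VIM at 1.23 ± 0.0929 (SD, n = 4). CDH2 stood at 0.0355 ± 0.0217 CPM per kb (SD, n = 4) and ZEB1 at 0.0327 ± 0.00623 (SD, n = 4), and these neighbours in the order did not differ beyond their spread. By these lengths CDH1 exceeded VIM in control, but with PI103 VIM stood at 3.16 ± 0.12 CPM per kb (SD, n = 4) and CDH1 at 2.21 ± 0.255 (SD, n = 4). The order of CDH1 and VIM depends on the lengths used. By mean CPM over all libraries, EPCAM lay above 99% of the 13947 genes tested and OCLN above 89.6%, whereas CDH1 lay above 41.8%, VIM above 36.5%, CDH2 above 10.9% and ZEB1 above 3.87%.

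FN1, SNAI2 and TWIST1 were at or near 0 and were not tested. FN1, which encodes fibronectin, held 26 counts in all 24 libraries together, with 0 in 12 libraries and at most 5, in control replicate 4. SNAI2, which encodes the factor Slug, held 4 counts in all, 1 in each of 4 libraries. TWIST1 was listed at 0 in all 24 libraries. A count of 0 allows up to 3 counts, which corresponds to 0.0367 to 0.0851 CPM in a single library and to 0.00201 CPM over all libraries. No fold change is given for these genes, since FN1 exceeded 3 counts in 1 library and SNAI2 and TWIST1 in none.

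The libraries held 38057638 to 84226380 counts in genes, and 15645 to 18263 genes had at least 1 count. Oxozeaenol replicate 2 stood apart with 18263 genes, where the next library had 16556. Without it, the 4 members called with oxozeaenol against control were still called, with adjusted p of 0.00603 for EPCAM, 0.0413 for VIM, 0.0478 for ZEB1 and 4.41e-05 for SNAI1 by edgeR. The defining epithelial markers (KRT8, KRT18, KRT19, CDH17 and CLDN4) summed to between 4028 and 6899 CPM and were present in every library. Of 7 fibroblast markers, COL1A2 and DCN never exceeded 1 count in a library, while COL1A1 (7.93 to 34.2 CPM) and PDGFRA (28.3 to 77.4 CPM) were present throughout. COL3A1 was low but present in every library (0.0131 to 1.10 CPM), and LUM and PDGFRB reached at most 0.292 and 0.308 CPM. Of 5 immune markers, PTPRC never exceeded 7 counts, and the sum (38.7 to 49.3 CPM in control, 188 to 468 CPM over the treated libraries) was almost wholly LYZ, the gene of lysozyme. The part of these markers in the results was not tested. Endothelial markers summed to at most 0.452 CPM.

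**Figure D1:**
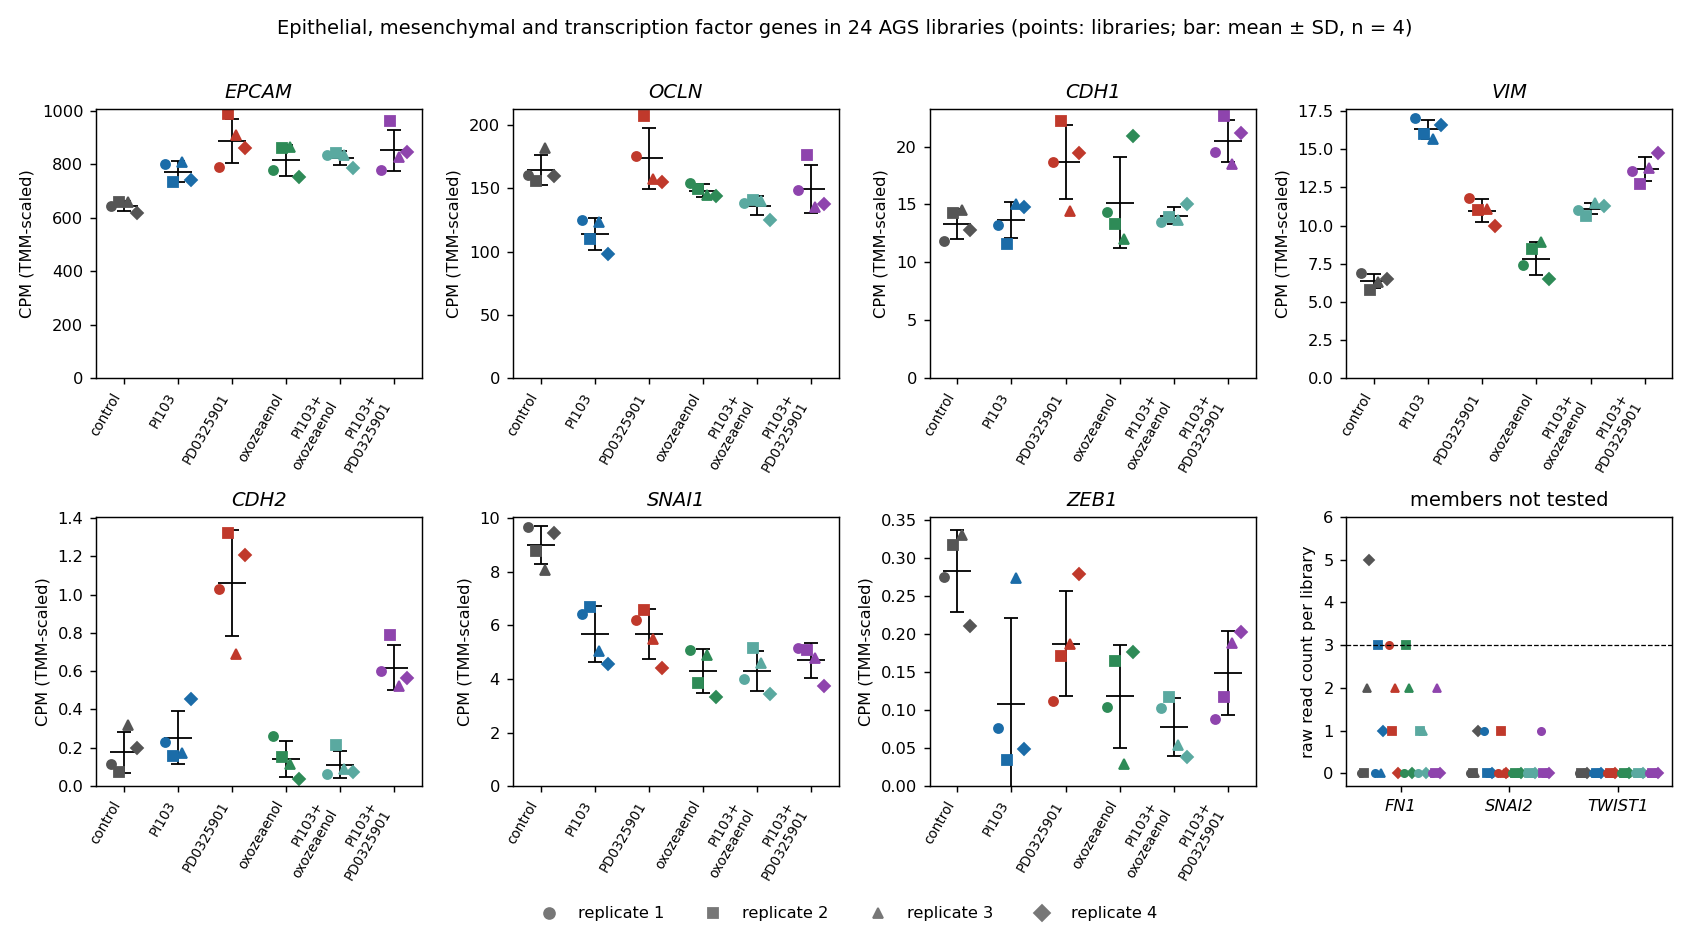
Level of each member in all 24 libraries by treatment group. In the first 7 panels the vertical axis is CPM from 0, points are libraries with the marker shape giving the replicate number, and the bar with whiskers is the group mean ± SD (n = 4). The last panel gives raw counts of the 3 members not tested, with a dashed line at 3 counts. VIM lies apart from control with PI103 (15.7 to 17.1 against 5.76 to 6.92 CPM), SNAI1 lies below control in every treatment, and FN1, SNAI2 and TWIST1 lie at 0 to 5 counts.

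The first question was which members each treatment moved against control. Differences were tested with edgeR by quasi-likelihood, p-values were adjusted over all 13947 genes of a comparison by the method of Benjamini and Hochberg, and a member was called at an adjusted p under 0.05. All adjusted p-values below are from this test unless another is named, and changes are log2 fold changes with their standard errors (SE). With PI103, 5 of the 7 tested members were called (EPCAM and VIM higher, OCLN, SNAI1 and ZEB1 lower), against 51.4% of all genes tested. With PD0325901, 5 were called (EPCAM, CDH1, VIM and CDH2 higher, SNAI1 lower), against 58.6% of all genes. With oxozeaenol, 4 were called (EPCAM and VIM higher, SNAI1 and ZEB1 lower), against 51.9%. The fit held no term for the replicate number, and with it as a block this ZEB1 call was lost (adjusted p 0.0519). The combination of PI103 with oxozeaenol gave 5 calls (EPCAM and VIM higher, OCLN, SNAI1 and ZEB1 lower), against 55.6%. PI103 with PD0325901 gave 5 calls (EPCAM, CDH1, VIM and CDH2 higher, SNAI1 lower), against 64.8% of all genes. In that order 51%, 49%, 49.6%, 49.9% and 49.6% of the called genes were higher. With upper-quartile scaling these shares were 59.9%, 58.2%, 57.1%, 57.9% and 61%. That scaling moved the median of all genes to between 0.07 (PD0325901) and 0.15 (PI103 with PD0325901) on the log2 scale.

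With more than 50% of all genes called in each comparison and only 7 members tested, these counts are read as a description of the members only. The 5 comparisons also share the 4 control libraries. EPCAM and VIM were called higher in all 5 treatments, as were 11.5% of the genes tested, and SNAI1 was called lower in all 5, as were 13.5%. CDH2 and ZEB1 were close to the filter on low counts (10 counts at the median library size, in at least 4 libraries). CDH2 reached it in all 8 libraries with PD0325901 and in 7 of the other 16, and ZEB1 in all 4 control libraries and in 7 of the 20 treated ones, so neither gene depended on the group where it was highest to pass.

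EPCAM (chr2:47345158-47387601 on GRCh38 in GENCODE 29, plus strand), a homophilic adhesion protein of epithelial cells, rose moderately with every treatment. The control libraries held 646, 659, 659 and 619.5 CPM in replicates 1 to 4. With PI103 they held 802, 733, 809.9 and 743 CPM, and with PD0325901 788, 988, 911 and 862 CPM. With oxozeaenol the values were 778, 862, 867 and 753 CPM. In the combinations they were 833, 842, 836 and 787 CPM with PI103 and oxozeaenol, and 780.1, 961, 829 and 845 CPM with PI103 and PD0325901. Every treated library lay above every control library. The rise was 0.26 (SE 0.0826, adjusted p 0.011) with PI103, 0.46 (SE 0.0827, adjusted p 3.5e-05) with PD0325901 and 0.34 (SE 0.0826, adjusted p 0.00143) with oxozeaenol. The combination with oxozeaenol raised EPCAM by 0.35 (adjusted p 0.000768) and the combination with PD0325901 by 0.40 (adjusted p 0.000138).

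In the order of its means EPCAM ran from control (646 ± 18.7 CPM, SD, n = 4) through PI103 (772 ± 39.6, SD, n = 4), oxozeaenol (815 ± 57.8, SD, n = 4), PI103 with oxozeaenol (824.5 ± 25.5, SD, n = 4) and PI103 with PD0325901 (853.5 ± 76.5, SD, n = 4) to PD0325901 (888 ± 84.0, SD, n = 4). The treated groups were close together. Among the 8 direct comparisons between treatments EPCAM differed only between PD0325901 and PI103, by 0.20 (adjusted p 0.0492). That call was lost in 7 of 8 fits with a single library removed.

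OCLN (chr5:69492292-69558104, plus strand) encodes occludin, a membrane protein of tight junctions. It fell with PI103 and, by less, with PI103 and oxozeaenol, and was not called with the other treatments. OCLN is also a known target of SNAI repression, so the RefSeq windows around its annotated starts (250 bases before to 50 after, GRCh38.p14) were searched for the E-box CAGGTG, read on both strands (CACCTG on the other). The 2 overlapping windows held 3 such boxes, on the plus strand of chromosome 5, where positions count from the annotated start of each window. They are shown because they are the letters SNAI1 and ZEB1 recognise, with the E-box in capitals, 5′ to 3′:
OCLN first start, box at -33, chr5:69492502-69492531: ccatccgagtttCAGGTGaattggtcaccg
OCLN second start, box at -133, chr5:69492645-69492674: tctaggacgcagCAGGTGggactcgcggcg
OCLN second start, box at 36, chr5:69492813-69492839: tcggtgcggcgtCAGGTGcgcccgcca

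Of 35116 RefSeq windows of this length, 20.6% held at least 1 such E-box, so the match is a common one and is a description of the letters, not of binding. In control OCLN stood at 161, 156, 182 and 159.7 CPM, and with PI103 at 125, 109.8, 123 and 98.3 CPM. All PI103 libraries lay below all controls. The change was -0.53 (SE 0.0983, adjusted p 7.19e-05). PI103 with oxozeaenol held 138, 141.0, 140.4 and 125 CPM, also below every control, with a change of -0.27 (SE 0.098, adjusted p 0.0203). The latter call was lost without control replicate 3 (adjusted p 0.0992) or without replicate 4 of the combination (0.0718), and with upper-quartile scaling (0.0839).

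With oxozeaenol OCLN held 144 to 154 CPM, below the lowest control library at 156, but was not called (-0.15, adjusted p 0.203). PD0325901 gave 154.8 to 207 CPM (0.08, adjusted p 0.508) and PI103 with PD0325901 gave 135 to 177 CPM (-0.14, adjusted p 0.217), both overlapping with control. Without replicate 2 of that combination OCLN was called lower than control (-0.23, adjusted p 0.046). OCLN was higher with PD0325901 than with PI103 by 0.61 (SE 0.0984, adjusted p 1.64e-05) and higher with oxozeaenol than with PI103 by 0.38 (adjusted p 0.00314). GENCODE lists an unprocessed pseudogene, OCLNP1, at chr5:71074225-71093193. The deposited table tallies reads without a unique alignment apart from the genes, so reads that fit both places may be missing from OCLN, and its absolute level is uncertain.

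CDH1 (chr16:68737225-68835548, plus strand) encodes E-cadherin, the adhesion molecule of adherens junctions. It rose with the treatments that contained PD0325901. In control it held 11.8, 14.3, 14.5 and 12.8 CPM, and with PI103 13.2, 11.6, 15 and 14.8 CPM, a change of 0.03 (SE 0.137, adjusted p 0.858). With PD0325901 it held 18.6, 22.2, 14.4 and 19.5 CPM, of which replicate 3 lay within the range of control. The rise was 0.48 (SE 0.137, adjusted p 0.00364). PI103 with PD0325901 gave 19.5, 22.7, 18.5 and 21.2 CPM, all above control, and a rise of 0.62 (SE 0.136, adjusted p 0.000311).

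Oxozeaenol gave 14.4, 13.3, 12.03 and 20.9 CPM for CDH1, where replicate 4 stood apart (0.19, adjusted p 0.265, and -0.01 without it). PI103 with oxozeaenol gave 13.5, 13.9, 13.6 and 15.1 CPM (0.07, adjusted p 0.679). Between treatments, CDH1 was higher with PD0325901 than with PI103 by 0.45 (adjusted p 0.00896). It was higher with PI103 and PD0325901 than with PI103 by 0.58 (adjusted p 0.0014), and than with PI103 and oxozeaenol by 0.55 (adjusted p 0.00362). PD0325901 and oxozeaenol were not called different for CDH1 (-0.30, SE 0.137, adjusted p 0.102), but were without oxozeaenol replicate 4 (-0.49, adjusted p 0.0047) or without PD0325901 replicate 3 (-0.40, adjusted p 0.0309). The 3 epithelial genes thus moved in 3 different patterns, EPCAM with every inhibitor, OCLN down with PI103 and CDH1 up with PD0325901.

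**Figure D2:**
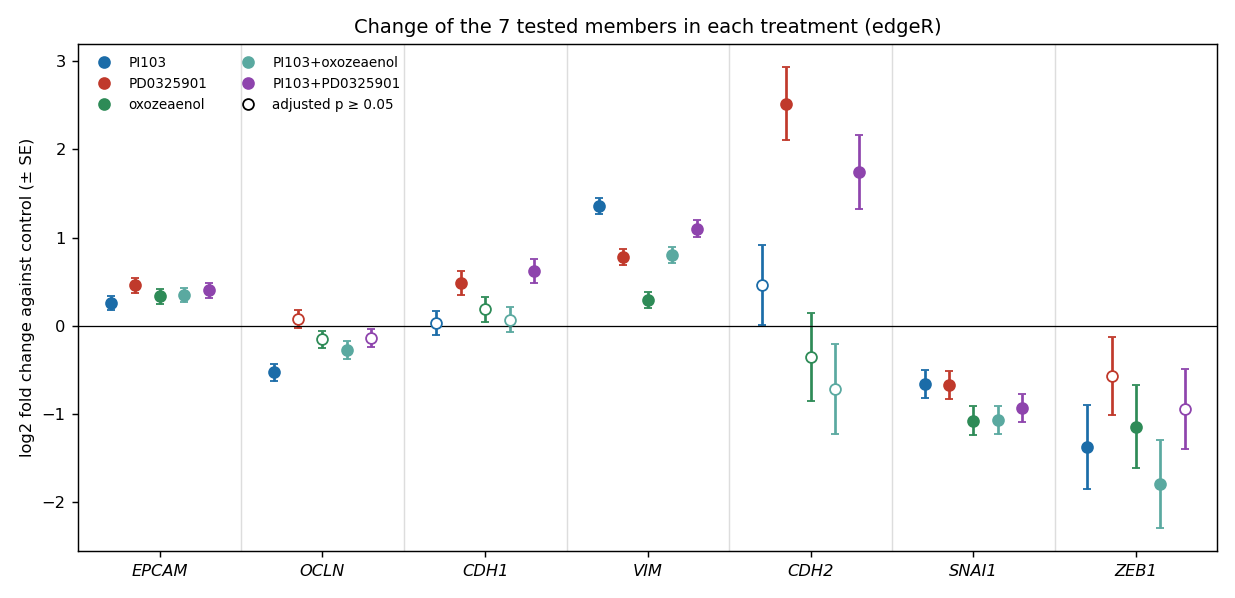
Change of each tested member against control in the 5 treatments. The vertical axis is the log2 fold change from edgeR with whiskers of 1 SE, colours are treatments, and open points have an adjusted p of 0.05 or more. EPCAM and VIM lie above 0 and SNAI1 below 0 in every treatment, and CDH2 stands at 2.52 with PD0325901 and 1.74 with PI103 and PD0325901.

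VIM (chr10:17228259-17237593, plus strand) encodes vimentin, the intermediate filament protein of mesenchymal cells. It had the clearest response in the set, strongest with PI103. The 250 bases before its RefSeq start (GRCh38.p14, chr10:17227991-17228240, plus strand) are printed because VIM was the member with the largest F statistic against control, with 1 GC box (GGGCGG, or CCGCCC on the other strand) in capitals:
VIM promoter: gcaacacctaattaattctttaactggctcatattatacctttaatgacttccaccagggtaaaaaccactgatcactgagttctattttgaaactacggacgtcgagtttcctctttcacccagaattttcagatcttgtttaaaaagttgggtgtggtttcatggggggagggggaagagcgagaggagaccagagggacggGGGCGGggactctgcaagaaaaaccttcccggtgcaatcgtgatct

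A GC box was present in 45% of all RefSeq windows of 300 bases. The E-box CAGGTG and the AP-1 motif TGANTCA (a palindrome apart from its centre, read on both strands, in 7.71% of windows) were not found in these letters.

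VIM held 6.92, 5.76, 6.33 and 6.48 CPM in control and 17.1, 15.99, 15.7 and 16.6 CPM with PI103, without overlap. The rise was 1.36 (SE 0.0938, adjusted p 1.37e-11), or 2.56-fold. With PI103 and PD0325901 it held 13.6, 12.8, 13.8 and 14.7 CPM, a rise of 1.10 (SE 0.0935, adjusted p 1.52e-10). PD0325901 gave 11.8, 11.04, 11.07 and 9.96 CPM (0.78, SE 0.0935, adjusted p 9.13e-08). PI103 with oxozeaenol gave 11.01, 10.6, 11.49 and 11.3 CPM (0.80, SE 0.0935, adjusted p 7.38e-08). All of these lay above every control library. With oxozeaenol VIM held 7.45, 8.49, 8.91 and 6.49 CPM, overlapping with control, and the rise of 0.30 (SE 0.0944, adjusted p 0.0108) was lost without oxozeaenol replicate 3 (0.23, adjusted p 0.0558), with no filter on low counts (0.0529) and with only the groups compared in the fit (0.0655).

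The treatments formed a graded order for VIM. Oxozeaenol (7.83 ± 1.09 CPM, SD, n = 4) stood below PD0325901 (10.96 ± 0.757, SD, n = 4), with a difference of -0.49 (adjusted p 0.000437). PI103 with oxozeaenol (11.1 ± 0.370, SD, n = 4) stood next to PD0325901, and this pair of groups overlapped and was not tested. PI103 with PD0325901 (13.7 ± 0.812, SD, n = 4) stood above PI103 with oxozeaenol by 0.30 (adjusted p 0.0142) and below PI103 (16.3 ± 0.620, SD, n = 4), with a difference of -0.25 (adjusted p 0.0296). The last difference lost its call in 5 of 8 fits with a single library removed (adjusted p up to 0.099), and the one between the combinations without replicate 4 of PI103 with PD0325901 (adjusted p 0.0502). The antisense genes VIM-AS1 and AL133415.1 lie opposite 12.4% and 12% of the exon length of VIM in GENCODE. The libraries were made with a stranded kit, but no source says how strand was handled in counting, so reads of VIM and of these genes may not have been told apart.

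Where VIM was highest, with PI103, the summed level of the fibroblast markers was also highest, at 99.3 to 112 CPM against 61.1 to 83.4 CPM in control. In the other treatments, where VIM was called higher too, that sum was 62.4 to 91.1 CPM with PD0325901, 37.6 to 46.6 with oxozeaenol, 43.7 to 53.1 with PI103 and oxozeaenol, and 64.4 to 80.5 with PI103 and PD0325901. It was carried by COL1A1 and PDGFRA, while DCN and COL1A2 stood at 0 or 1 count in each library. COL3A1, LUM and PDGFRB added at most 1.10, 0.292 and 0.308 CPM, so the sum does not show how they moved. With PI103, COL3A1 (0.73, adjusted p 0.346) and PDGFRB (-0.63, adjusted p 0.173) were not called against control. COL3A1 rose with PD0325901 (3.90, adjusted p 1.39e-07) and with PI103 and PD0325901 (4.28, adjusted p 1.54e-08). PDGFRB was called lower in every treatment but PI103 (-1.01 to -2.24). In bulk RNA, more cells of a type and more RNA per cell cannot be told apart. Relative to EPCAM the shift was large. The ratio of EPCAM to VIM per kb of exon was 209 ± 19.7 (SD, n = 4) in control and 96.9 ± 6.22 (SD, n = 4) with PI103, while PD0325901 gave 167 ± 20.6 (SD, n = 4). The size of this ratio depends on the merged exon lengths used. For oxozeaenol the ratio was 215 ± 16.5 (SD, n = 4), close to control. It was 152 ± 8.32 (SD, n = 4) with PI103 and oxozeaenol and 128 ± 17.6 (SD, n = 4) with PI103 and PD0325901, so EPCAM remained far more abundant than VIM in every library (lowest ratio 91.8).

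CDH2 (chr18:27950966-28177446, minus strand) encodes N-cadherin, the cadherin that mesenchymal and neural cells carry. Its counts were low, between 2 and 78 per library, and it rose with the treatments that contained PD0325901. Control libraries held 7, 4, 26 and 15 counts (0.113, 0.0745, 0.318 and 0.197 CPM), and PD0325901 libraries held 55, 77, 48 and 78 counts (1.03, 1.32, 0.688 and 1.21 CPM). The groups did not overlap, and the rise was 2.52 (SE 0.414, adjusted p 1.05e-05). PI103 with PD0325901 gave 48, 47, 36 and 28 counts (0.601, 0.790, 0.521 and 0.566 CPM), also without overlap, a rise of 1.74 (SE 0.422, adjusted p 0.000785).

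PI103 alone left CDH2 at 15, 9, 10 and 28 counts (0.47, SE 0.456, adjusted p 0.407). Oxozeaenol gave 15, 11, 4 and 2 counts (-0.36, SE 0.5, adjusted p 0.572), and PI103 with oxozeaenol gave 5, 13, 5 and 4 counts (-0.72, SE 0.511, adjusted p 0.237). All 3 of these groups overlapped with control. Direct comparisons gave CDH2 higher with PD0325901 than with PI103 by 2.05 (SE 0.405, adjusted p 0.000173), and lower with oxozeaenol than with PD0325901, with a difference of -2.88 (SE 0.443, adjusted p 3.85e-05). It was higher with PI103 and PD0325901 than with PI103 and oxozeaenol by 2.46 (SE 0.462, adjusted p 0.000274). Both cadherins thus rose with PD0325901, but CDH1 remained at 14.4 CPM or more there, while CDH2 stayed at 1.32 CPM or less.

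SNAI1 (chr20:49982999-49988886, plus strand) encodes Snail, a zinc finger repressor of epithelial genes. It fell with every treatment. In control it held 9.68, 8.79, 8.08 and 9.45 CPM. With PI103 it held 6.41, 6.69, 5.04 and 4.57 CPM (-0.66, SE 0.158, adjusted p 0.000996), and with PD0325901 6.21, 6.56, 5.51 and 4.42 CPM (-0.67, SE 0.158, adjusted p 0.000751). With oxozeaenol it held 5.06, 3.86, 4.88 and 3.33 CPM (-1.08, SE 0.161, adjusted p 4.1e-06). The combinations gave 4.00, 5.16, 4.59 and 3.43 CPM with oxozeaenol (-1.07, SE 0.16, adjusted p 3.41e-06) and 5.17, 5.07, 4.79 and 3.74 CPM with PD0325901 (-0.94, SE 0.159, adjusted p 1.26e-05). No treated library reached the lowest control library, and replicate 4 was the lowest of its group in every treatment.

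The tested differences of SNAI1 between treatments were smaller than its falls against control. Oxozeaenol against PI103 gave -0.41 (adjusted p 0.0416), a call that was lost in 4 of 8 fits with a single library removed (adjusted p up to 0.148). Oxozeaenol against PD0325901 gave -0.41 (adjusted p 0.059), which passed with the replicate number as a block (0.0163) and with DESeq2 (0.0393). PI103 with oxozeaenol against PI103 gave -0.40 (adjusted p 0.0823), which also passed with the block (0.0242). PI103 and PD0325901 gave a difference of 0.00 (SE 0.159, adjusted p 0.99). GENCODE lists a processed pseudogene, SNAI1P1, on chromosome 2. Reads that fit both copies may likewise be missing from SNAI1, and its level is uncertain.

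ZEB1 (chr10:31318495-31529814, plus strand) encodes a zinc finger and homeodomain repressor of epithelial genes. It was close to the limit of detection, with 1 to 27 counts per library. RefSeq lists several starts, and 2 of the 7 windows held the E-box CAGGTG or CACCTG, 4 times in all, on the plus strand of chromosome 10. These boxes are shown because ZEB1 itself binds such letters, with the E-box in capitals:
ZEB1 box at -57, chr10:31318348-31318377: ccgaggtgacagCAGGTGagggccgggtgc
ZEB1 box at -242, chr10:31318966-31318991: ccccaccaCACCTGaggaaaactttt
ZEB1 box at -85, chr10:31319119-31319148: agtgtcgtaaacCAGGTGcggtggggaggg
ZEB1 box at 34, chr10:31319237-31319265: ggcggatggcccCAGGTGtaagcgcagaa

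ZEB1 held 17, 17, 27 and 16 counts in control (0.275, 0.317, 0.330 and 0.210 CPM). PI103 with oxozeaenol gave 8, 7, 3 and 2 counts (0.103, 0.117, 0.0534 and 0.0379 CPM), all below control, with a change of -1.79 (SE 0.499, adjusted p 0.00357). This call held in all 8 fits with a single library removed, with adjusted p between 0.00391 and 0.0148. PI103 gave 5, 2, 16 and 3 counts, of which replicate 3 lay within the range of control, and the change was -1.38 (SE 0.478, adjusted p 0.0182). Without PI103 replicate 3 the change was -2.35 (adjusted p 0.000447), and without PI103 replicate 1, 2 or 4 the call was lost (adjusted p 0.0563 to 0.0698).

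Oxozeaenol gave ZEB1 6, 12, 1 and 10 counts, below control in CPM, with a change of -1.14 (SE 0.473, adjusted p 0.0451). That call was lost in 9 of 14 alternatives, among them DESeq2 (0.0626) and the replicate block (0.0519). PD0325901 gave 6, 10, 13 and 18 counts (-0.57, SE 0.44, adjusted p 0.276). PI103 with PD0325901 gave 7, 7, 13 and 10 counts, in CPM also below control (-0.94, SE 0.455, adjusted p 0.0708). PI103 with oxozeaenol was not tested against PD0325901, nor PI103 with PD0325901 against oxozeaenol. None of the treatment pairs tested was called different for ZEB1. Without PI103 replicate 3, however, ZEB1 was higher with PD0325901 than with PI103 by 1.77 (adjusted p 0.00899), and higher with PI103 and PD0325901 than with PI103 by 1.40 (adjusted p 0.0476). ZEB1-AS1, an antisense gene, lies opposite 4.23% of its exon length. Antisense genes also lie opposite 5.62% of the exon length of CDH1 and 2.75% of that of CDH2. The unknown handling of strand in counting, given for VIM, holds for these members too.

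Combinations were then set against each of their single agents. For PI103 with oxozeaenol against PI103, 1 of the 7 tested members was called, against 18.3% of all genes. This was VIM, with a difference of -0.56 (SE 0.0917, adjusted p 8.18e-05) and no overlap. CDH2 was called too without replicate 2 of the combination (-1.72, adjusted p 0.0357, against -1.19 and 0.102 with it). With the replicate number as a block, 3 members were called, the others being OCLN (0.26, adjusted p 0.0318) and SNAI1 (-0.40, adjusted p 0.0242). Calls over all genes rose with the block too, from 2553 to 3347 of 13947, so the added member calls are not particular to this set. Against oxozeaenol, 1 member was called, against 14.9% of genes. This was again VIM, higher by 0.51 (SE 0.0934, adjusted p 0.000644), so for VIM the combination lay between its single agents.

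PI103 with PD0325901 differed from PI103 in 4 members, against 38.7% of genes. CDH1 was higher by 0.58 (SE 0.137, adjusted p 0.0014), OCLN by 0.39 (SE 0.0982, adjusted p 0.00274) and CDH2 by 1.28 (SE 0.412, adjusted p 0.0159), and the difference for VIM was -0.25. The CDH2 call was lost without PI103 replicate 2 or 3 or replicate 2 of the combination (adjusted p up to 0.0593). Against PD0325901, 1 member was called, against 18.1% of genes. VIM was higher by 0.32 (SE 0.0918, adjusted p 0.0164), and that call was lost without PD0325901 replicate 4 or replicate 4 of the combination (0.0602 and 0.0574).

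Since the dose of an inhibitor in a combination was 50% of that used alone, the combinations were also compared with the mean of both single-agent log2 changes as a reference. For PI103 with oxozeaenol, 0 of 7 tested members departed from this mean by edgeR, 0 at an unadjusted p under 0.05 and 0 by DESeq2, against 3.98% of all genes called. VIM lay at -0.03 from it (SE 0.08, adjusted p 0.926). For PI103 with PD0325901, 1 member departed, against 22% of all genes. CDH1 was higher than the mean by 0.36 (SE 0.116, adjusted p 0.0279, above it in 4 of 4 batches). It lost the call in 4 of 12 fits with a single library removed, which were those without PI103 replicate 2 (adjusted p 0.0592), PD0325901 replicate 3 (0.0593), or replicate 2 (0.124) or 4 (0.0702) of the combination. VIM lay at 0.03 (SE 0.079, adjusted p 0.796) and EPCAM at 0.04 (SE 0.0713, adjusted p 0.694) from the mean. With upper-quartile scaling, the share of called genes that were higher moved from 48.5% to 59.8% for this combination against PI103, from 44.6% to 60% against PD0325901, from 49.3% to 66.1% against the mean, and from 47.8% to 62.6% against the other combination.

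**Figure D3:**
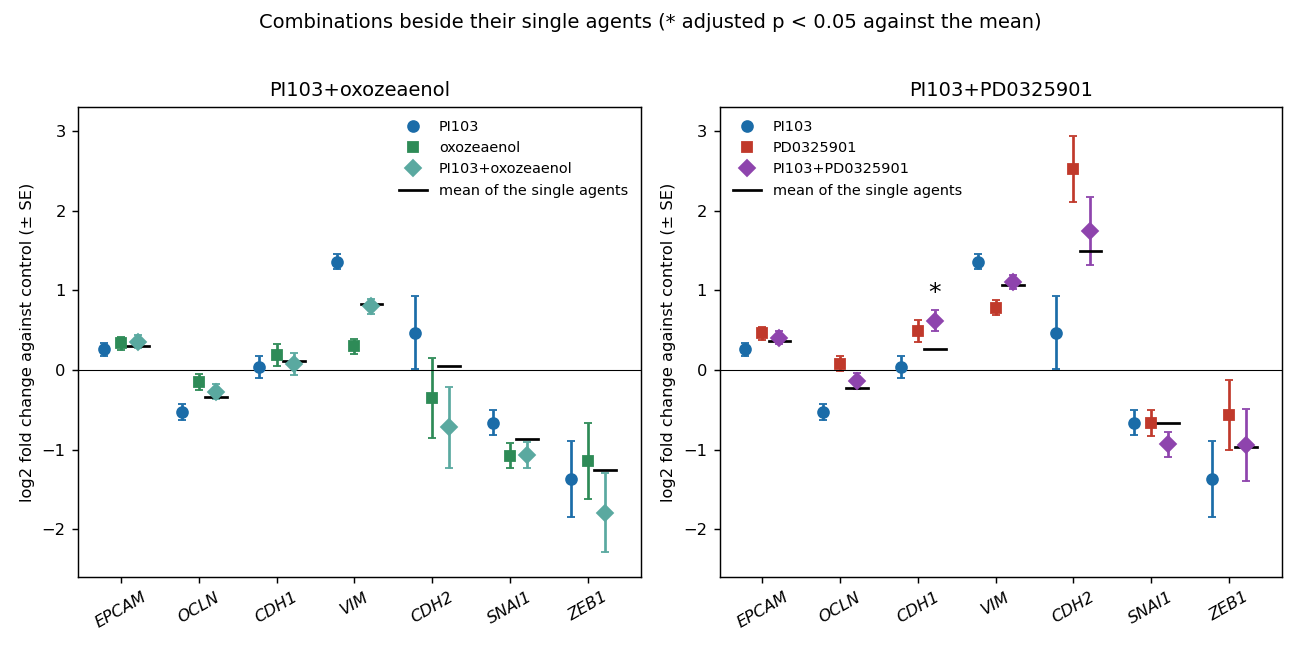
Each combination beside its single agents for the 7 tested members. The vertical axis is the log2 fold change against control with whiskers of 1 SE, circles and squares are the single agents, diamonds the combination and horizontal lines the mean of the single agents. VIM lies on the line in both panels (-0.03 and 0.03 from it), and CDH1 with PI103 and PD0325901 is the member marked as departing, by 0.36.

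The single agents were also compared directly. PD0325901 differed from PI103 in 5 of the 7 tested members, against 44.5% of all genes, with CDH1, EPCAM, OCLN and CDH2 higher and VIM lower (-0.58, SE 0.0917, adjusted p 1.32e-05). Oxozeaenol differed from PI103 in 3, against 43.1% of genes, with OCLN higher and SNAI1 and VIM lower (-1.06 for VIM, SE 0.0934, adjusted p 1.76e-09). Oxozeaenol differed from PD0325901 in 2, against 28.5% of genes, with VIM and CDH2 lower. OCLN (-0.22, adjusted p 0.0436) and SNAI1 were called as well with the replicate number as a block, where calls over all genes rose from 3976 to 5067. The combinations differed from each other in 3, against 29.9% of genes, with CDH1, VIM and CDH2 higher with PD0325901 as the partner.

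Genes whose 5 changes against control were most like those of a member were sought among 10039 or 10040 genes with a mean of at least 5 CPM. Likeness was the root mean square difference of the 5 log2 fold changes, given as a description. For VIM, ZNF362 was among the nearest (0.115). For EPCAM they were AGPAT2 (0.0294) and VPS35 (0.0361), for CDH1 FAM55C (0.0542) and AHCYL2 (0.0567), and for OCLN RHOQ (0.0654) and SEC63 (0.069). The nearest to SNAI1 were PDLIM2 (0.0857) and NFKBIL1 (0.102), and to ZEB1 ITGA5, the integrin alpha 5 subunit (0.0645), and CALCOCO2 (0.248). For CDH2 they were NLRP7 (0.474) and NAV2 (0.511). The changes against control had SEs of 0.414 to 0.511 for CDH2 and 0.44 to 0.499 for ZEB1. For these low members the size of the difference therefore does not show whether a gene is alike.

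Wider lists of related genes gave the setting of the members. Of 35 further junction and epithelial surface genes, 33 were tested, and 13 rose and 3 fell with PI103, 18 and 5 with PD0325901, 10 and 8 with oxozeaenol, 13 and 7 with PI103 and oxozeaenol, and 15 and 4 with PI103 and PD0325901. In that order 48.5%, 69.7%, 54.5%, 60.6% and 57.6% of these genes were called, against 51.4%, 58.6%, 51.9%, 55.6% and 64.8% of all genes tested. Their median change was 0.13, 0.23, 0.05, 0.13 and 0.16 in that order, where the median of all genes tested lay between -0.02 and 0.02. TJP3, a tight junction scaffold, rose by 2.02 with PD0325901, while the tight junction protein CLDN1 fell in all 5 treatments (-1.47 with PI103, -0.77 with PD0325901). Of 14 epithelial regulators 13 were tested, of which 3 rose and 5 fell with PI103, 3 and 5 with PD0325901, 4 and 7 with oxozeaenol, 3 and 7 with PI103 and oxozeaenol, and 4 and 6 with PI103 and PD0325901, which is 61.5%, 61.5%, 84.6%, 76.9% and 76.9% called against the same shares of all genes. FOXA1 rose in all 5 (1.74 with PD0325901) and KLF4 fell in all 5 (-2.59 with PD0325901).

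In the mesenchymal lists genes were called in both directions in every treatment. Of 28 matrix and protease genes 17 were tested, and 10 rose and 1 fell with PI103, 8 and 4 with PD0325901, 4 and 7 with oxozeaenol, 7 and 5 with PI103 and oxozeaenol, and 11 and 4 with PI103 and PD0325901, with medians of 0.70, 0.53, 0.20, 0.26 and 0.83. These are 64.7%, 70.6%, 64.7%, 70.6% and 88.2% called, against 51.4%, 58.6%, 51.9%, 55.6% and 64.8% of all genes. The lowest tested gene of this list had a mean of 0.116 CPM, where the cutoff of the filter was 0.17 CPM. For the wider lists it was not checked whether low genes passed only through the group where they were highest. Rises of such genes are therefore a description only. The list medians include genes with a mean under 5 CPM. With oxozeaenol, alone or with PI103, more list genes at 5 CPM or above had negative than positive changes. The positive medians in those treatments therefore rested on the lower genes. COL4A1 rose by 1.49 with PI103 and CTGF changed by -1.69 with PD0325901. Of 22 cytoskeletal, integrin and surface genes 16 were tested, and 8 rose and 3 fell with PI103, 3 and 12 with PD0325901, 3 and 10 with oxozeaenol, 4 and 6 with PI103 and oxozeaenol, and 3 and 10 with PI103 and PD0325901. The shares called were 68.8%, 93.8%, 81.2%, 62.5% and 81.2%, against the same shares of all genes. Their medians were 0.27, -0.51, -0.42, -0.17 and -0.34. ITGA2, an integrin subunit that binds collagen, changed by -3.41 with PD0325901, while S100A4, a calcium-binding protein, rose by 2.05 there and by 1.31 with PI103.

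Of 16 further transcription factors linked to the transition, 10 were tested, and ZEB2 held at most 2 counts in any library and TWIST2, PRRX1 and GSC held 0. With PI103 4 of the 10 rose and 3 fell, with PD0325901 4 and 4, with oxozeaenol 2 and 4, with PI103 and oxozeaenol 4 and 3, and with PI103 and PD0325901 5 and 4. That is 70%, 80%, 60%, 70% and 90% of only 10 genes, against 51.4%, 58.6%, 51.9%, 55.6% and 64.8% of all genes. FOSL1, an AP-1 subunit, fell in all 5 (-1.68 with PI103, -4.10 with PD0325901), and HMGA2 rose by 1.23 with PI103. Of 31 genes of TGF-beta signalling 28 were tested, and 12 rose and 7 fell with PI103, 7 and 10 with PD0325901, 5 and 12 with oxozeaenol, 8 and 9 with PI103 and oxozeaenol, and 9 and 7 with PI103 and PD0325901, or 67.9%, 60.7%, 60.7%, 60.7% and 57.1% called. TGFBR2, a receptor for TGF-beta, changed by -1.94 with PD0325901. No test of a list was made, so none is called different from the share of all genes.

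**Figure D4:**
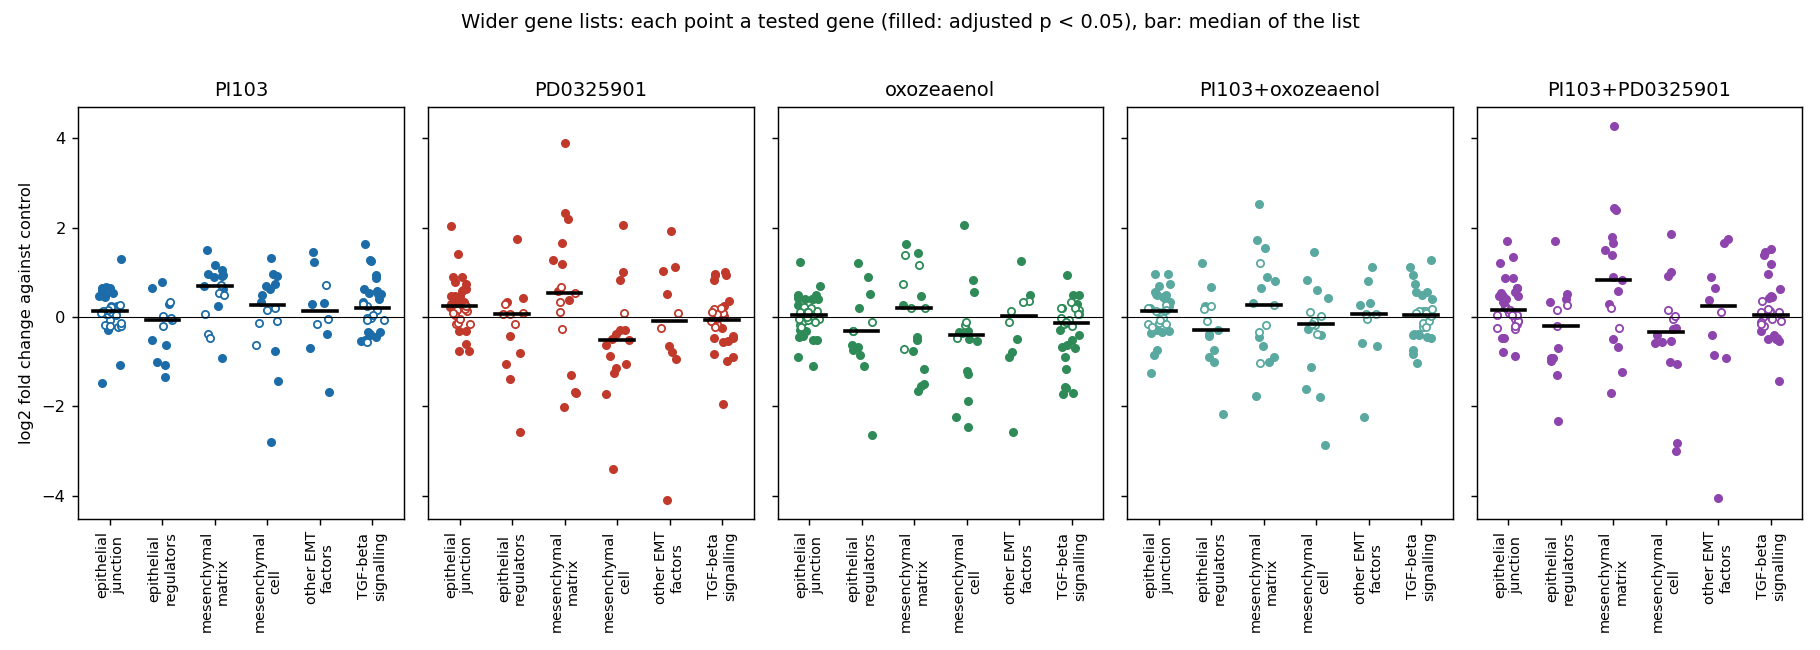
Changes of related genes in 6 lists, 1 panel per treatment. The vertical axis is the log2 fold change against control, each point is a tested gene, filled points have an adjusted p under 0.05, and bars are list medians. The median of the matrix list, with genes under 5 CPM included, is the highest of the 6 lists in every panel. It is 0.70, 0.53, 0.20, 0.26 and 0.83 in the order of the panels. Genes of every list lie on both sides of 0 in every panel.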

How the data were processed

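RNA of 24 AGS libraries (6 groups of 4, prepared with a stranded mRNA kit per the labels' protocols) was read from a deposited table of raw read counts per gene. Reads were aligned to GRCh38 per the submitters' processing notes. The aligner, counter and annotation are not given in the sources used here. The table's 5 tally rows that name no gene (10.7% to 16.5% of reads in a library) were left out, and 0 other per-sample columns were present. Groups came from sample titles.

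Counts were fitted with edgeR 4.0.16 in R 4.3.3 (TMM scaling, filterByExpr, robust quasi-likelihood, 1 coefficient per group, all 24 libraries), giving 13947 tested genes and 15 comparisons. On simulated data the fit was tested for recovery of known changes. Alternatives were other scaling, filters, DESeq2 1.42.0, only the groups compared, a replicate block, and leaving out each library. The replicate number is the batch in the labels, so it pairs samples. The main fit left this pairing out, and the replicate block among the alternatives took it in. Same-numbered samples deviated together with a mean r of 0.12 over 60 pairs, against -0.04 over 180 other pairs.

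All 10 members were named. From each wider list, the largest rise and fall per treatment at a mean of at least 5 CPM with the same sign in all 4 batches could be named, and for each tested member the 2 most alike genes. A gene that this rule would name is not reported here. The members and lists were chosen with earlier results of these data known. Gene models are GENCODE 29, promoter sequences RefSeq on GRCh38.p14. The series states biological replicates without saying how cultures were separated, so p-values measure only the spread between these samples.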

Additional observations from a re-analysis of the deposited data

Results flagged for a closer look

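In 3 of 42 combinations of a tested member and a group, a single library stood apart from the other replicates by Dixon's criterion, which chance alone meets in about 1 in 20 groups. EPCAM stood at 786.7 CPM in replicate 4 of PI103 with oxozeaenol, below the other libraries at 833.2 to 842.4 CPM. Without that library, EPCAM was higher than control by 0.38 (adjusted p 0.00118 by edgeR). OCLN stood at 125.3 CPM in the same library, below the others at 138.3 to 141 CPM. Without it, OCLN differed from control by -0.23 (adjusted p 0.0718 by edgeR), no longer a call. CDH2 stood at 0.2171 CPM (13 counts) in replicate 2 of the same group, above the others at 0.0644 to 0.089 CPM. Without it, CDH2 differed from control by -1.26 (adjusted p 0.0658 by edgeR), not a call.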

How the results depend on the processing

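Of 1591 member log2 fold changes recomputed under an alternative, 40 changed sign, in 20 results, and 0 of these were called in either fit. The number of members called with oxozeaenol against control was 2 with no filter on low counts, against 4, and oxozeaenol against PD0325901 gave 4 with upper-quartile scaling, against 2. With the replicate number as a block, oxozeaenol against PD0325901 gave 4 and PI103 with oxozeaenol against PI103 gave 3, against 1. Besides these, the block changed among member calls only that of ZEB1 with oxozeaenol. Over all genes the block raised the calls from 3976 to 5067 for oxozeaenol against PD0325901. For PI103 with oxozeaenol against PI103 it raised them from 2553 to 3347. With only the groups compared in the fit, PI103 with oxozeaenol against PI103 gave 3, and PI103 with PD0325901 against PD0325901 gave 0, against 1. A filter of 5 CPM, which tests fewer genes, left 7 matrix genes called with PD0325901 (against 12), 7 with oxozeaenol alone (against 11) and 7 when PI103 was added to it (against 12), and 9 for the other combination (against 15). It left 8 of the mesenchymal cell genes called with PI103 and PD0325901, against 13. Mean EPCAM in control was 618.1 CPM with unscaled library sizes. Except for the 5 CPM filter, the cause of these changes was not tested.

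Leaving out each library in turn gave 2 to 4 members called with oxozeaenol against control, 1 to 3 for PI103 with oxozeaenol against PI103, and 2 to 4 for PI103 with PD0325901 against PI103. It gave 0 to 1 for that combination against the mean of its single agents, 0 to 2 against PD0325901, and 2 to 4 for oxozeaenol against PD0325901. Depth limits ZEB1 and CDH2, with at most 27 and 78 counts in a library, and FN1, SNAI2 and TWIST1 most of all.

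The sign changes were all of small or poorly measured differences. SNAI1 with PD0325901 against PI103 was 0.006 with DESeq2's size factors, with DESeq2 and with the 5 CPM filter, 0.002 with no filter and 0.016 with upper-quartile scaling, and -0.094 to 0.1 when each library was left out. OCLN with PI103 and PD0325901 against control was 0.007 with upper-quartile scaling. SNAI1 with PI103 and oxozeaenol against oxozeaenol was -0.001 with only those groups, and -0.096 to 0.113 when each library was left out. The other ranges over single libraries left out were as follows. Against control, CDH1 ranged from -0.02 to 0.103 with PI103 and from -0.009 to 0.276 with oxozeaenol, and CDH2 from -0.838 to 0.111 with oxozeaenol. For oxozeaenol against PI103, CDH1 ranged from -0.042 to 0.243 and ZEB1 from -0.046 to 1.203. For PI103 with oxozeaenol against PI103, CDH1 ranged from -0.029 to 0.089 and ZEB1 from -0.694 to 0.556. Against oxozeaenol, CDH1 ranged from -0.205 to 0.08, EPCAM from -0.019 to 0.049 and CDH2 from -0.906 to 0.121. Against the mean of its single agents, CDH1 ranged from -0.083 to 0.059 and VIM from -0.065 to 0.007. For PI103 with PD0325901 against the mean, EPCAM ranged from -0.018 to 0.081, OCLN from -0.006 to 0.135, VIM from -0.004 to 0.066 and ZEB1 from -0.133 to 0.512. EPCAM ranged from -0.014 to 0.085 between the combinations.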
